A study of Mus musculus with 40 samples.

Results

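The genes *Etnppl*, *Acss3*, *Heph*, *Apod*, *Pxmp2*, *Fggy*, *Cryz* and *Fam213a* were followed across mouse striatum RNA-seq. They are 8 of the 24060 gene rows counted, and they were selected because their counts were higher in bulk striatum of SAPAP3 knockout (KO) mice than of wild-type (WT) mice, while they lie far from *Dlgap3*, the gene that encodes SAPAP3. The difference in bulk striatum is therefore how the genes were chosen and is given as a description. The rule names no values of the other libraries, and the question put to them was whether the same genes differed between genotypes there and in which cells their RNA was found.

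The study held 40 libraries in 10 groups of 4. Bulk striatal RNA came from WT and KO mice (4 each, strain labelled C57/BL6NTac, age not given in the sources used here). A second set, called here the SAPAP3 cohort, held WT mice (strain labelled C57/BL6J) and KO mice (strain labelled C57/BL6J-Dlgap3 KO) with RiboTag virus injected at 4.5 months. Each of these mice gave an input and an IP library. RiboTag adds a haemagglutinin-tagged ribosomal protein, RPL22, to a chosen cell type from a virus, so that immunoprecipitation (IP) recovers the RNA on the ribosomes of those cells, whereas the input is lysate RNA of all striatal cells. The Control and Syn sets, from C57/BL6NTac mice injected at 6 weeks, gave input and IP libraries without a knockout. The tag was driven either by the hSYN1 promoter, active in neurons, or by the GfaABC1D promoter, active in astrocytes. The labels do not say which virus the Control and SAPAP3 cohort mice had, so the cell type of each IP is described from marker genes below. The KO line, Dlgap3tm1Gfng, lacks the gene's function in all tissues and not in a chosen cell type.

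All 8 genes encode proteins of metabolism or transport rather than of synapses. Astrocytes take up nutrients and ions for their neighbours, break down amino acids and short-chain acids, turn over membrane lipids and protect against oxidation, and much of the enzyme set for this is expressed more in astrocytes than in neurons. SAPAP3 is a scaffold of excitatory postsynaptic sites, and the study reported the protein in striatal astrocytes as well. Mice lacking SAPAP3 groom excessively and are used as a model of obsessive-compulsive disorder.

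The genes fall into groups by role. *Etnppl* (ethanolamine-phosphate phospho-lyase, which breaks down phosphoethanolamine, a building block of membrane lipids) and *Apod* (apolipoprotein D, a secreted lipid-binding lipocalin) belong to lipid metabolism. *Acss3* (a mitochondrial acyl-CoA synthetase that activates propionate) and *Pxmp2* (a channel of the peroxisomal membrane) act in organelles that oxidize fatty acids. *Heph* encodes hephaestin, a copper-containing ferroxidase that works with the iron exporter ferroportin. *Fggy* encodes a carbohydrate kinase. *Cryz* (zeta-crystallin, a quinone reductase) and *Fam213a* (peroxiredoxin-like 2A, listed by RefSeq as *Prxl2a*) encode redox proteins.

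By RefSeq's gene annotation (GRCm38.p6, which is mm10), *Etnppl* lies at chr3:130617448-130635750 and *Cryz* on the same chromosome at chr3:154596711-154623182, both on the plus strand. *Acss3* lies at chr10:106933514-107123761, *Apod* at chr16:31296192-31314808, *Pxmp2* at chr5:110274286-110286222 and *Fam213a* at chr14:40993735-41013833, all on the minus strand. *Heph* lies on the X chromosome at chrX:96455436-96574485 on the plus strand. *Fggy* lies at chr4:95557480-95926939 on the plus strand, on the chromosome of *Dlgap3* (chr4:127168305-127237022) and 31.24 Mb away from it. The start of *Heph* overlaps *Hsf3*, and the start of *Cryz* overlaps *Tyw3*, and how reads in the shared bases were assigned is not given in the sources used here.

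RefSeq promoter windows of 300 bases were found for *Etnppl*, *Apod*, *Fggy*, *Cryz* and *Fam213a*, and not for *Acss3*, *Heph* and *Pxmp2*. The windows of *Etnppl* and *Cryz* are shown because these genes had the largest and the smallest difference in bulk striatum. They run 5′ to 3′ along the gene from upstream of its annotated start into its first bases (chr3:130617198-130617497 and chr3:154596461-154596760 of GRCm38.p6, plus strand), and the capitals mark CpG dinucleotides.
*Etnppl*: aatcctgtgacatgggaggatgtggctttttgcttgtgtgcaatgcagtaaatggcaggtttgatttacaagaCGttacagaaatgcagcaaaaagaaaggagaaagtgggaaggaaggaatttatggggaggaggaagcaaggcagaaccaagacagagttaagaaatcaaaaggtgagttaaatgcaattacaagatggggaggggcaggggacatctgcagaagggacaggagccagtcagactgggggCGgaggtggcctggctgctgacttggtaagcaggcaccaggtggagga
*Cryz*: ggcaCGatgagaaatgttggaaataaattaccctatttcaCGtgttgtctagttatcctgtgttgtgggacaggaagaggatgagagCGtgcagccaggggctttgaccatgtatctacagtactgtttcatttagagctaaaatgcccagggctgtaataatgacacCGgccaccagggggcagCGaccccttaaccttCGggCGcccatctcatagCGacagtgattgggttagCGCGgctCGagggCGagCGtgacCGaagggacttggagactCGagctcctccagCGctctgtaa
The *Etnppl* window held 2 CpG and that of *Cryz* held 16, against a median of 7 in all 32851 promoter windows of the table. The windows at the annotated starts of *Apod* and *Fam213a* held 4 and 16. *Etnppl* had the GC box letters GGGCGG on either strand, which 35.658% of all promoter windows held, and *Cryz* had the CCAAT letters, which 37.408% held. None of the windows at the starts of these 4 genes held the TATA box letters TATAAA, which stood in 13.616% of all windows. Genes that were chosen together thus had promoters of different CpG content.

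Counts summed to between 54689535 and 75203125 per bulk library. They summed to between 23438112 and 33333324 per input and between 40367540 and 47699278 per IP library of the SAPAP3 cohort. Levels are given as CPM (counts of the gene per 1 M counted reads of the library). *Dlgap3* was at 376, 386, 338 and 232 CPM in the WT bulk libraries and at 161, 153, 154 and 144 CPM in the KO bulk libraries. KO libraries were thus below every WT library, with reads of the gene still counted (log2(FC) -1.14, SE 0.14), though edgeR's adjusted p in bulk was 0.318. In the SAPAP3 cohort *Dlgap3* fell in inputs (log2(FC) -1.19, edgeR adjusted p = 0.00698) and in IP (-1.40, adjusted p = 0.0283).

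Some libraries stood apart. *Nnt* and *Wdfy1*, which are known to differ between C57BL/6J and C57BL/6N mice, were at 55.3 to 83.5 CPM and at 59.0 to 73.8 CPM in the Control and Syn libraries. In the SAPAP3 cohort *Nnt* was at 27.8 to 36.9 CPM and *Wdfy1* at 11.0 to 32.6 CPM. WT bulk replicate 1 had 51.8 CPM of *Nnt* and 73.0 CPM of *Wdfy1*, near the Control and Syn values. The 7 other bulk libraries, which carry the same strain label, had 29.7 to 33.5 and 25.4 to 31.1 CPM. These 7 lay within the ranges of the SAPAP3 cohort and below those of the Control and Syn libraries, labelled C57/BL6NTac. For these genes the 7 libraries thus did not match their C57/BL6NTac label, and the reason was not tested. *Xist*, made in female cells, was at 197 CPM in WT bulk replicate 3 and at 0 to 2.36 CPM in the other bulk libraries, and all 4 KO bulk libraries had Y-linked *Ddx3y* at 100.3 CPM or more. In the SAPAP3 cohort 1 KO mouse (replicate 1) and 1 WT mouse (replicate 4) expressed *Xist*. Sex was therefore not balanced between genotypes in bulk. The labels give the 4 libraries of each group different animal numbers. However, WT bulk replicate 1 and KO bulk replicate 1 carry the same animal number. This WT library is also the one that stood apart in *Nnt* and *Wdfy1*.

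In bulk striatum each of the 8 genes had every KO library above every WT library, with KO at 126% to 217% of the WT mean. They were selected for higher counts in KO bulk. Every KO library lay above every WT library for 415 of 16020 genes tested, or 2.59%. *Etnppl* was at 21.7, 32.8, 17.2 and 25.2 CPM in WT and at 61.8, 45.4, 57.7 and 45.0 CPM in KO. Its highest WT library stayed below its lowest KO library, and the log2(FC) of 1.10 (SE 0.19) was the largest of the 8. For *Apod* the values were 166, 231, 202 and 163 CPM in WT and 272, 249, 276 and 304 CPM in KO (log2(FC) 0.51, SE 0.11). The gap between the groups was narrower here, from 231 to 249 CPM. In bulk tissue, more cells of a type and more RNA per cell cannot be told apart.

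*Acss3* and *Pxmp2*, whose proteins act in organelles, had the lowest CPM of these genes, a measure not corrected for gene length. *Acss3* was at 0.984, 1.30, 0.951 and 1.28 CPM in WT and at 1.77, 2.19, 2.02 and 2.14 CPM in KO (log2(FC) 0.82, SE 0.15). *Pxmp2* was at 3.51, 4.24, 3.73 and 3.70 CPM in WT and at 5.26, 5.37, 5.26 and 5.23 CPM in KO (log2(FC) 0.45, SE 0.08). The KO libraries of *Pxmp2* lay close together (SD 0.062 CPM), while the WT libraries were spread more widely (SD 0.31 CPM). The iron gene *Heph* was at 9.89, 13.6, 10.7 and 10.3 CPM in WT and at 16.7, 17.0, 17.2 and 16.1 CPM in KO (log2(FC) 0.57, SE 0.09).

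Of the other genes, *Fggy* was at 9.99, 10.8, 9.87 and 11.0 CPM in WT and at 13.7, 13.7, 12.3 and 13.0 CPM in KO (log2(FC) 0.32, SE 0.07). *Cryz* was at 12.1, 12.8, 12.1 and 11.7 CPM in WT and at 15.6, 15.6, 16.1 and 14.1 CPM in KO (log2(FC) 0.31, SE 0.07). *Fam213a* was at 96.6, 115, 90.4 and 102 CPM in WT and at 129, 128, 133 and 128 CPM in KO (log2(FC) 0.34, SE 0.07). The redox genes thus stood at 126% and 128% of their WT mean in KO. Across the 8 genes, WT replicate 2 was the highest WT library for 7 and WT replicate 3 the lowest for 4, so that the WT libraries kept a partly shared order.

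**Figure D1:**
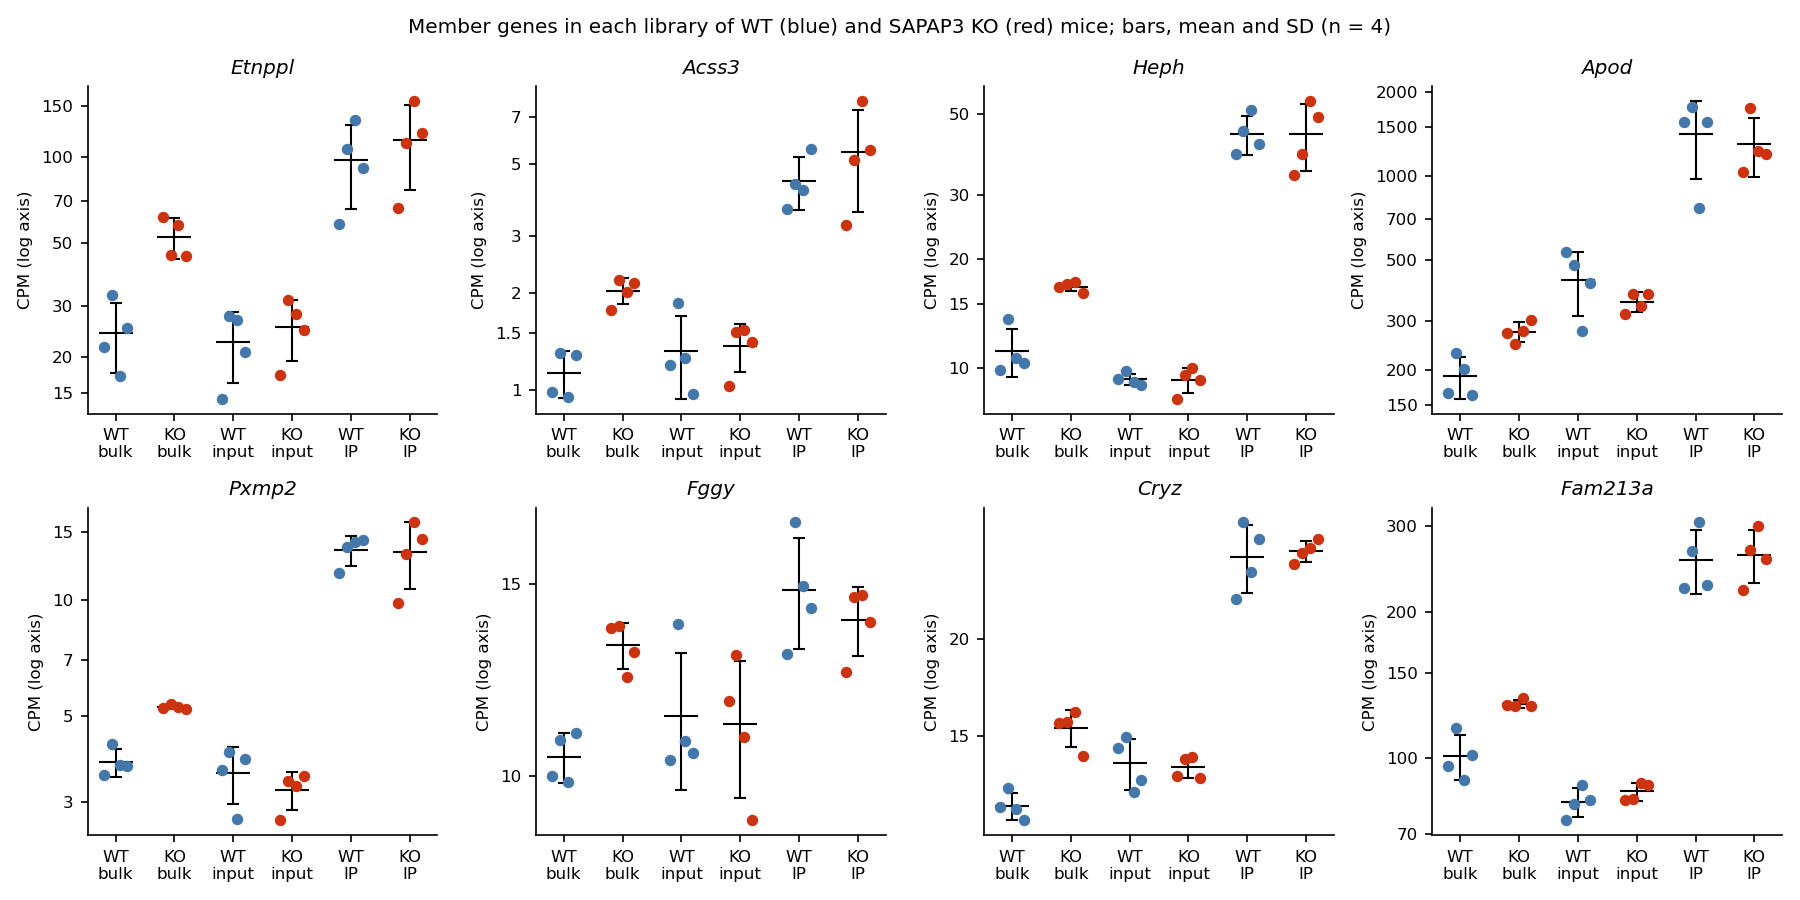
Level of each gene in the bulk, input and IP libraries of WT (blue) and SAPAP3 KO (red) mice, in CPM on a log axis, 1 point per library with the mean and SD of 4. The KO points lie above all WT points in bulk for each gene, whereas the genotypes overlap in inputs and IP.

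How firmly the bulk difference was called depended on the test. edgeR's quasi-likelihood test called 0% of genes in bulk at an adjusted p under 0.05 (432 genes, 2.7%, were higher and 360, 2.25%, lower at an unadjusted p under 0.05, and limma-voom also called 0). The DESeq2 Wald test called 12 genes higher in KO, 0.0749% of those tested, and 5 lower. All 8 genes were among the 12, but they were selected on these same libraries, so their calls are a description and no test. The other 4, which were named here after their values were seen, were *Dnaic2* (DESeq2 log2(FC) 0.81), *Slc1a5* (1.08), *Rhoj* (0.48) and *Sp7* (0.55). The rule does not say why they were left out. Just inside the DESeq2 limit lay *Cryz* (0.31) and *Sp7*, and just outside it *Mettl20* (0.63) and *Spata6* (0.36).

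All 8 differences in bulk stayed above 0 when the libraries that stood apart were left out, but fewer were called. Leaving them out was a choice made after seeing the data. With every KO library above every WT library, leaving out WT libraries could hardly change the direction. The genes were selected on these libraries, so these fits and calls are a description and no test. Without WT replicate 1 the edgeR log2(FC) was 1.06 for *Etnppl*, 0.77 for *Acss3*, 0.53 for *Heph* and 0.46 for *Apod*, and without WT replicate 3 it was 0.97, 0.75, 0.56 and 0.55. Without both it was 0.85, 0.64, 0.48 and 0.48, and it was 0.41 for *Pxmp2*, 0.27 for *Fggy*, 0.32 for *Cryz* and 0.25 for *Fam213a*. DESeq2 called 8 of the genes with all libraries, 4 without WT replicate 1, 4 without WT replicate 3 and 1, *Etnppl*, without both. Over all genes it called 12 higher and 5 lower with all libraries. The count over all genes without both is given below with the other alternatives, and those without WT replicate 1 or 3 alone are not given. Whether the loss of calls was particular to the 8 was not tested.

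In the inputs of the SAPAP3 cohort no genotype difference of the 8 genes was detected. None of the 8 passed edgeR's quasi-likelihood test, which called 0% of 15591 genes higher in KO, and none had an unadjusted p under 0.05 (2.82% of all genes were higher and 2.75% lower at that limit) or every KO library above every WT library (1.52% of all genes). limma-voom and DESeq2 called none of them either. The median log2(FC) of the 8 was 0.02, against -0.0017 over all genes tested.

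*Etnppl* was at 14.3, 27.8, 26.9 and 20.8 CPM in WT inputs and at 17.3, 31.6, 28.3 and 24.9 CPM in KO inputs. The libraries of the genotypes were interleaved, and the log2(FC) was 0.21 with an approximate 95% interval of -0.36 to 0.77. For *Acss3* the input values were 1.20, 1.85, 1.26 and 0.969 CPM in WT and 1.03, 1.51, 1.53 and 1.40 CPM in KO (log2(FC) 0.08, interval -0.49 to 0.66). Here the lowest and the highest library were both WT.

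*Heph* was at 9.30, 9.78, 9.16 and 8.95 CPM in WT inputs and at 8.23, 9.58, 9.99 and 9.29 CPM in KO inputs (log2(FC) 0.03, interval -0.18 to 0.23). The group means were nearly equal, at 9.30 CPM (SD 0.352) in WT and 9.27 CPM (SD 0.752) in KO. *Apod* was at 531, 477, 277 and 411 CPM in WT inputs and at 318, 376, 342 and 376 CPM in KO inputs (log2(FC) -0.23, interval -0.62 to 0.16). All KO libraries were below the WT mean of 424 CPM, although the lowest library was WT. *Pxmp2* was at 3.63, 4.04, 2.70 and 3.87 CPM in WT inputs and at 2.69, 3.40, 3.30 and 3.49 CPM in KO inputs (log2(FC) -0.11, interval -0.49 to 0.26). It too had each KO library below the WT mean of 3.56 CPM, and the lowest libraries of both genotypes were nearly equal.

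For *Fggy* the log2(FC) in inputs was 0.0051 (interval -0.32 to 0.33), with WT libraries at 10.3 to 13.8 CPM and KO libraries at 9.11 to 12.9 CPM. For *Cryz* it was 0.02 (interval -0.16 to 0.19), with WT libraries at 12.7 to 14.9 CPM and KO libraries at 13.2 to 14.1 CPM. For *Fam213a* it was 0.10 (interval -0.06 to 0.26), with WT libraries at 74.6 to 88.3 CPM and KO libraries at 82.2 to 89.0 CPM. The libraries of the genotypes overlapped for these genes as well.

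In the IP of the same mice the 8 genes did not pass the test either. edgeR called 0.00658% of 15198 genes higher in KO, a single gene that is not one of the 8. None of the 8 had an unadjusted p under 0.05 (1.64% of all genes were higher and 0.98% lower at that limit), and none had every KO library above every WT library (0.559%). limma-voom and DESeq2 called none of them in IP. The median log2(FC) of the 8 was 0.03, against 0.0062 over all genes tested. *Etnppl* was at 58.1, 106, 134 and 91.7 CPM in WT IP and at 66.4, 112, 157 and 122 CPM in KO IP (log2(FC) 0.25, interval -0.43 to 0.93). The lowest library of both genotypes was that of replicate 1, in IP as in input.

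*Acss3* was at 3.64, 4.34, 4.16 and 5.58 CPM in WT IP and at 3.24, 5.13, 7.85 and 5.52 CPM in KO IP (log2(FC) 0.31, interval -0.28 to 0.91). KO replicate 3 was the highest of all and KO replicate 1 the lowest. The mice that expressed *Xist* moved this value: with both left out, a choice made after seeing the data, the log2(FC) in IP was 0.64 for *Acss3* and 0.41 for *Etnppl*, and none of the 8 was called. *Dlgap3* was not called in that fit of 3 against 3 mice in either fraction. The remaining genes had IP log2(FC) between -0.10 (*Apod*, WT 770 to 1776 CPM, KO 1031 to 1753 CPM) and 0.05 (*Fam213a*, WT 224 to 305 CPM, KO 222 to 300 CPM). For *Heph* it was 0.02 with an interval of -0.33 to 0.37. The intervals of *Etnppl*, *Acss3* and *Apod* in IP were wider, as was the spread of their libraries.

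**Figure D2:**
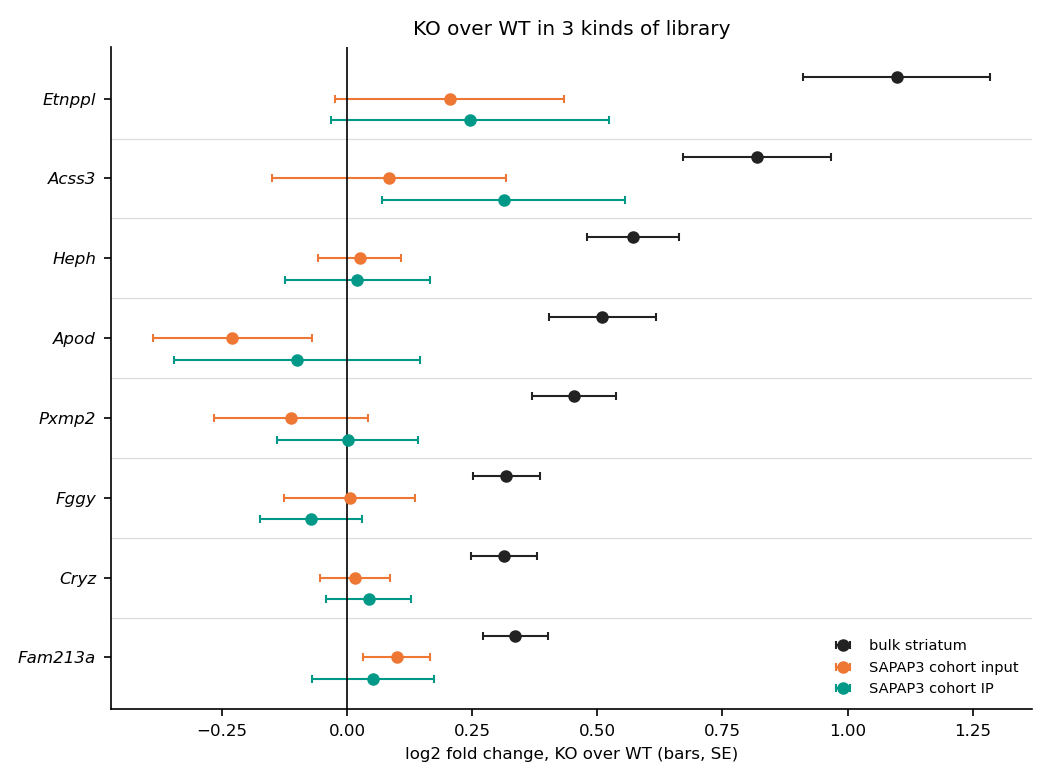
log2(FC) of KO over WT for each gene in bulk striatum (black), SAPAP3 cohort inputs (orange) and SAPAP3 cohort IP (green), with the SE as bars (4 libraries per genotype). The bulk values, on which the genes were selected, run from 0.31 to 1.10, and the input and IP values run from -0.23 to 0.31.

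Whether the genotype difference changed between IP and input was tested with an interaction term over the 16 libraries of the cohort, without a term for the mouse. It called 0% of 16059 genes and none of the 8 (edgeR's quasi-likelihood test, with 153 genes higher and 50 lower at an unadjusted p under 0.05, and limma-voom also called 0). The interaction was largest for *Acss3* (0.23, interval -0.57 to 1.03) and *Apod* (0.13, interval -0.57 to 0.84). The difference between the bulk and the input result was not tested, as the bulk and SAPAP3 cohort mice differ in strain label, virus and preparation. For most bulk libraries the levels of *Nnt* and *Wdfy1* did not match that label.

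IP over input showed where the RNA of these genes was found. In the Control mice 5 of the 8 passed the limit (edgeR adjusted p under 0.05 and log2(FC) above 1), which 13.4% of 15476 genes passed. The IP of these mice was enriched for astrocyte RNA, since 10 of 10 astrocyte markers passed (median log2(FC) 2.97, with *Sox9* at 3.40 and *Gja1* at 2.97) and 10 of 10 microglia markers fell (median -5.45). Ependymal and choroid plexus markers were enriched as well, with 5 of 7 called higher in Control IP (median 2.05) and 5 of 8 in SAPAP3 cohort WT and KO IP. Of 10 neuron markers, 3 were called lower in Control IP and 3 had values above 0 (median -0.79). No oligodendrocyte precursor marker was called in Control IP, and 5 of 8 had values above 0. The part of these other cell types in the values of the 8 genes was not tested. *Heph* had the largest enrichment at 2.61 (SE 0.06, adjusted p = 1.91e-11), with 55.3, 58.4, 53.0 and 51.1 CPM in IP and 11.0, 9.69, 10.9 and 9.92 CPM in input. It stood at place 133 of 15476 genes, and its IP libraries lay far above its inputs. *Etnppl* (2.17), *Pxmp2* (2.17), *Fam213a* (2.09) and *Acss3* (2.04) followed, at the 96.2 to 97.0 percentile of all genes.

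*Etnppl* was at 84.6, 64.0, 75.5 and 59.8 CPM in Control IP and at 21.8, 17.4, 16.5 and 18.0 CPM in input (adjusted p = 1.25e-08). Every IP library lay far above every input. *Fam213a* was at 302, 302, 294 and 272 CPM in Control IP and at 82.7, 79.5, 79.5 and 79.2 CPM in input (adjusted p = 7.14e-12), again without overlap. At an unadjusted p under 0.05, 6144 of 15476 genes were higher in Control IP, so a difference between the fractions was common. The share of all genes without overlap is not given here.

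*Cryz* and *Fggy* had smaller enrichments that differed from 0 but stayed under the fold limit. *Cryz* had a log2(FC) of 0.97 (adjusted p = 2.44e-08) and *Fggy* of 0.64 (adjusted p = 6.84e-07). Both had every IP library above every input, for which the share over all genes is not given here. *Apod* was not called (0.85, SE 0.40, adjusted p = 0.0681). It was at 330, 145, 368 and 809 CPM in Control IP and at 257, 202, 240 and 370 CPM in the inputs of the same mice. Replicate 2 was lower in IP than in input, by a ratio of 0.719, while replicate 4 was higher, by 2.19. Without the IP library of replicate 2 the log2(FC) of *Apod* was 1.14 (adjusted p = 0.00268).

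In the Syn mice all 10 neuron markers had values above 0 in IP over input (median 0.80, 3 called). None of the 8 was enriched in the neuronal IP (0.42% of 16198 genes passed that limit), and 2 fell below the limit of -1, which 15.8% of genes passed. These were *Etnppl* (-1.04, SE 0.10, adjusted p = 7.38e-06) and *Acss3* (-1.04, SE 0.29, adjusted p = 0.00912). Both lay close to the limit, and leaving out single libraries moved the count to between 0 (without Syn IP replicate 3) and 2. *Etnppl* was at 5.54, 5.80, 5.02 and 6.20 CPM in Syn IP and at 12.8, 11.8, 12.8 and 16.1 CPM in input. Its IP libraries lay below all inputs. At an unadjusted p under 0.05, 5981 of 16198 genes were lower in Syn IP. *Pxmp2* (-0.85), *Apod* (-0.67), *Heph* (-0.61) and *Fam213a* (-0.44) had values on the same side, whereas *Cryz* (0.21, adjusted p = 0.00428) and *Fggy* (0.09, adjusted p = 0.321) lay slightly above 0.

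**Figure D3:**
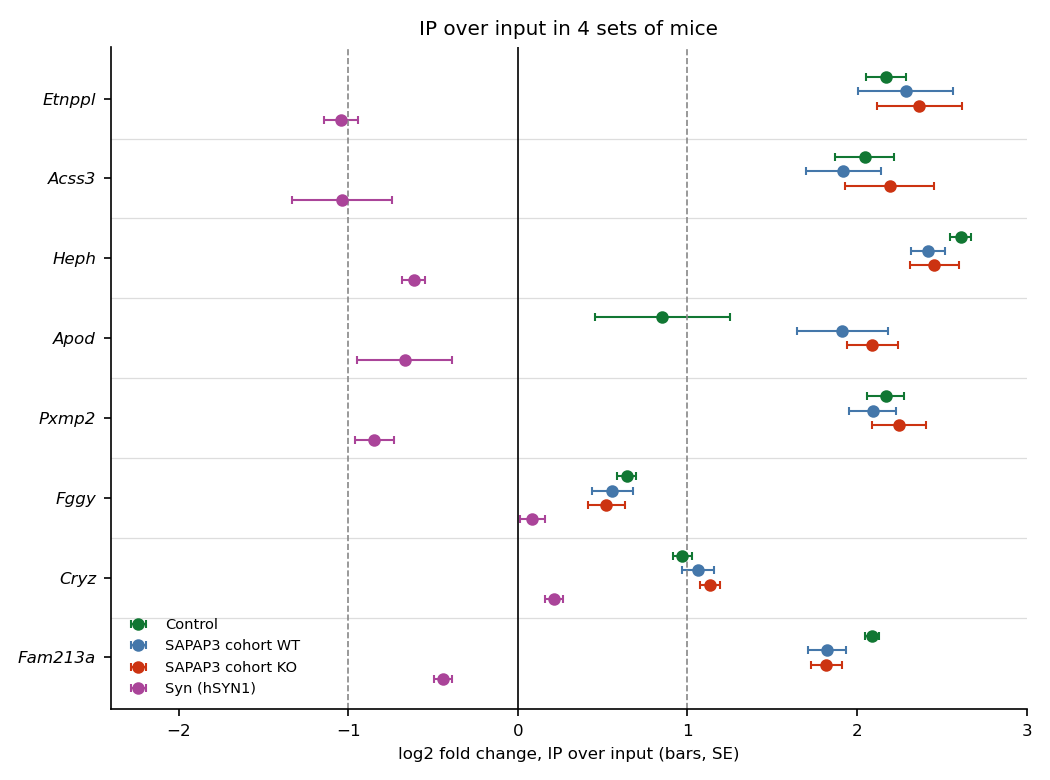
log2(FC) of IP over input for each gene in Control, SAPAP3 cohort WT, SAPAP3 cohort KO and Syn (hSYN1) libraries, with the SE as bars (4 libraries per fraction) and dashed lines at the limits of -1 and 1. *Etnppl*, *Acss3*, *Heph*, *Pxmp2* and *Fam213a* lie above 1 in the first 3 sets and below 0 in Syn, and *Fggy* lies between 0 and 1 in all 4.

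The test of the difference between the enrichments, Control minus Syn, called 6 of the 8 genes, where 19.1% of 16371 genes were called in that direction. The difference was 3.23 for *Heph* (SE 0.09, adjusted p = 4.43e-15), 3.21 for *Etnppl* (SE 0.17, adjusted p = 2.04e-11), 3.08 for *Acss3*, 3.02 for *Pxmp2*, 2.53 for *Fam213a* and 1.52 for *Apod* (SE 0.55, adjusted p = 0.021), all on the log2 scale. The call of *Apod* was lost without the IP library of Control replicate 4 (0.98, adjusted p = 0.0643). For *Cryz* (0.76) and *Fggy* (0.56) the difference was also above 0 but under the limit of 1. Control libraries had at most 1 read of *Xist* and all Syn libraries expressed it, so cell type and sex cannot be told apart in this comparison.

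In the SAPAP3 cohort 7 of the 8 genes were enriched in IP in WT mice, where 10.9% of 15587 genes passed, and the 7 were enriched in KO mice, where 12.3% of 15583 genes passed. *Fggy* stayed under the fold limit in both (0.56 and 0.52). *Heph* again had the largest enrichment, 2.42 in WT and 2.46 in KO, followed by *Etnppl* (2.29 and 2.37). *Cryz*, at 1.06 and 1.13, lay just above the limit and fell below it with scaling to library totals (0.89 and 0.93). The astrocyte markers were enriched as in the Control mice, with 10 of 10 called in WT (median 2.30) and in KO (median 2.39). Of 10 neuron markers, 1 was called lower in each genotype. All 8 oligodendrocyte precursor markers had values above 0, with none called in WT and 3 called higher in KO.

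*Apod* differed between the sets, which also differ in strain label and in age at virus injection, so these cannot be told apart. Its IP over input ratio ranged from 0.719 to 2.19 in the Control mice, from 2.78 to 3.81 in SAPAP3 cohort WT mice and from 3.20 to 4.66 in KO mice, and the Control range lay below both others. The oligodendrocyte markers moved with it: 4 of 10 were called higher in the IP of SAPAP3 cohort WT mice (median 0.75) and KO mice (median 0.80), whereas none was called higher and 1 lower in the Control mice (median -0.08). Their summed level was 3268 to 5582 CPM in Control IP against 7299 to 10660 CPM in WT IP and 6842 to 9473 CPM in KO IP. No marker of that list was at 0. The part of oligodendrocyte RNA in the IP level of *Apod* was not tested, and *Apod* is known to be expressed in oligodendrocytes as well as in astrocytes.

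Levels per length (FPKM, counts per kilobase of merged exons and 1 M reads) allow the genes to be ordered. In Control IP *Apod* was highest at 199 FPKM (SD 136), then *Fam213a* at 143 (SD 6.94), *Etnppl* at 26.1 (SD 4.13), *Pxmp2* at 14.9 (SD 1.65), *Cryz* at 9.41 (SD 0.498), *Heph* at 9.17 (SD 0.532), *Fggy* at 3.24 (SD 0.147) and *Acss3* at 0.516 (SD 0.0651, n = 4 for each). *Apod* and *Fam213a* were within the spread of *Apod*, and *Cryz* and *Heph* within that of each other. In Syn IP the leading pair was the same, with *Apod* at 55.3 FPKM (SD 21.8) and *Fam213a* at 26.3 (SD 1.44), while *Cryz* at 4.60 stood above *Etnppl* at 2.07. The 8 genes thus spanned a wide range of abundance, with *Apod* highest and *Acss3* lowest in both.

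**Figure D4:**
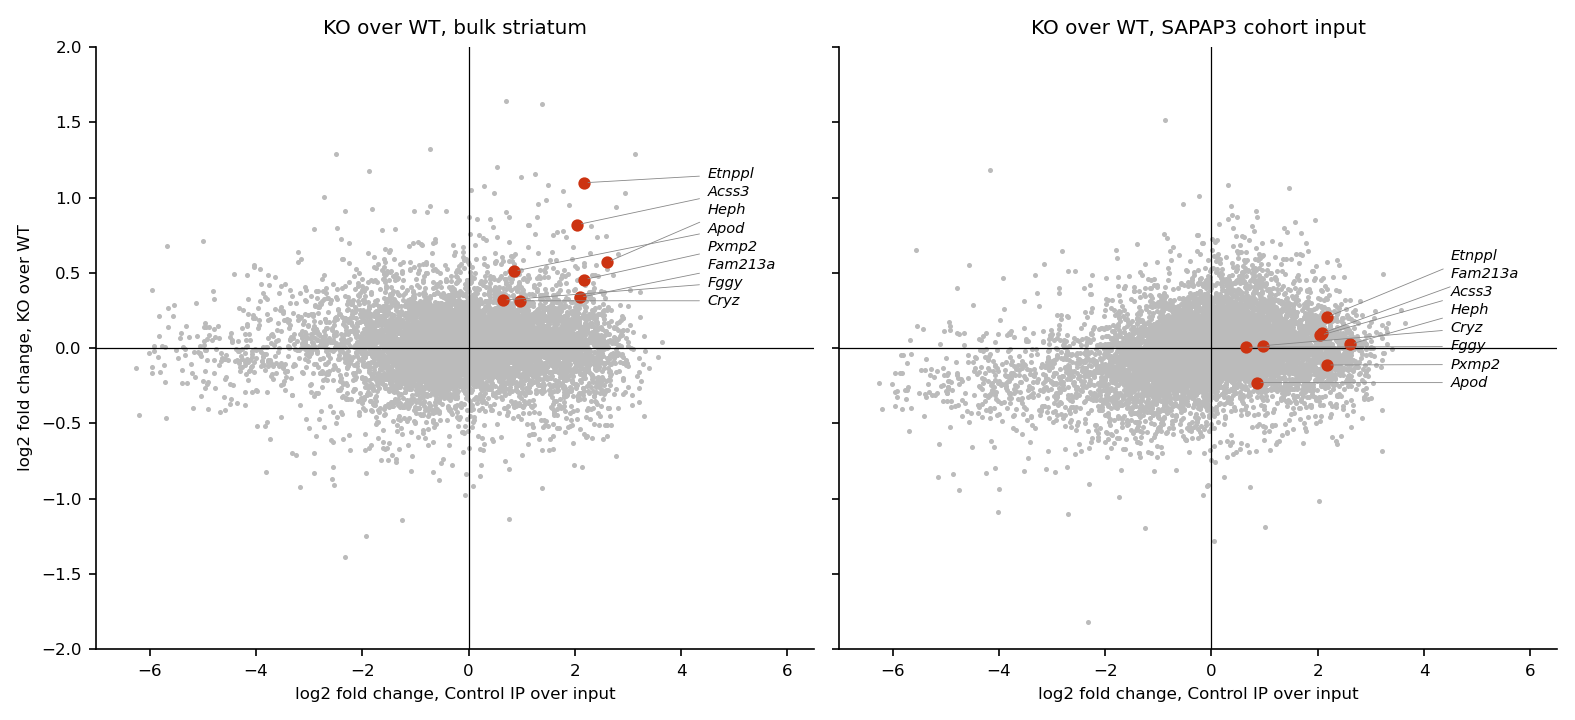
log2(FC) of KO over WT in bulk striatum (left) and SAPAP3 cohort inputs (right) against log2(FC) of IP over input in Control mice, 1 point per gene (15314 and 15162 genes, with 3 and 4 outside the axes) and the 8 genes in red. The 8 genes lie between 0.64 and 2.61 on the enrichment axis, above 0 in bulk and on both sides of 0 in inputs.

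As 5 of the 8 genes were called higher in Control IP, the genotype values of other genes called there were set beside them. Of 2004 genes called higher in Control IP and tested in bulk, the 8 left out, 56.7% had a log2(FC) above 0 in KO bulk (median 0.03), against 50.5% of all genes (median 0.0013). At an unadjusted p under 0.05, 5.94% of them were higher, against 2.65% of all genes. In the inputs the shares above 0 were 50.6% and 49.5%. In IP they were 75.1% and 52.6%. Of the genes called lower in Control IP, 50.5% were above 0 in bulk, 22.1% in inputs (median -0.135) and 47.4% in IP. Why these shares differ was not tested.

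Cell type markers were measured in the same bulk libraries. None of 10 astrocyte markers had an unadjusted p under 0.05 in bulk (median log2(FC) 0.05), and their summed level was 5775 to 6696 CPM in WT and 6156 to 6765 CPM in KO. The oligodendrocyte sum was 4738 to 8093 CPM in WT and 4705 to 8854 CPM in KO, and the microglia sum was 485 to 600 CPM and 505 to 572 CPM. Of 10 endothelial and mural markers, 3 were higher in KO bulk at an unadjusted p under 0.05, with sums of 135 to 184 CPM in WT and 178 to 190 CPM in KO. In the inputs these vessel markers went the other way, 5 lower in KO at that limit, with sums of 211 to 260 CPM in WT and 166 to 201 CPM in KO. In bulk 6 of 10 astrocyte, 3 of 10 oligodendrocyte, 3 of 10 microglia and 8 of 10 vessel markers had a log2(FC) above 0. The part of the vessel markers in the values of the 8 genes was not tested.

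Genes near the 8 in the genome were examined as well. Of 98 genes that start within 1 Mb of a member and were tested in bulk, none was called. At an unadjusted p under 0.05, 4 were higher and 1 lower (2.7% and 2.25% of all genes). A log2(FC) above 0 was seen for 51 (median 0.01). *Hsf3*, which overlaps the start of *Heph*, was among the 4, with 1.29 (SE 0.33, adjusted p = 0.984), and was named after its values were seen. In inputs 3 of 93 such genes were higher and 4 lower (2.82% and 2.75% of all genes). In IP 3 of 91 were higher and 1 lower (1.64% and 0.98%), with none called in either.

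The pathways of the 8 genes were followed with 7 lists of 119 further genes. In bulk none of the 116 genes tested was called, 9 were higher and 2 lower at an unadjusted p under 0.05 (2.7% and 2.25% of all genes), and the median log2(FC) was 0.02. In inputs 2 of 117 were higher and 1 lower (2.82% and 2.75% of all genes), and in IP 1 was higher and none lower (1.64% and 0.98%), again with none called. Enrichment in Control IP was called for 39 of the 117 genes, against 13.4% of all genes, and depletion for 4.

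Among the acyl-CoA synthetase and propionate genes, 3 of 13 were higher in bulk at the unadjusted limit: *Mmab*, which makes the cobalamin cofactor of propionate breakdown (0.25), *Acss1*, a mitochondrial acetyl-CoA synthetase (0.20), and *Acsf3*, a malonyl-CoA synthetase (0.18). Among the iron genes, *Tfrc*, the transferrin receptor (0.39), *Fth1*, ferritin heavy chain (0.25), and *Slc11a2*, an iron importer (0.17), were higher and *Steap3*, a ferrireductase (-0.40), lower, of 13 tested. The redox list had *Prdx4*, a peroxiredoxin (0.35), and *Mecr* (0.22) of 23, and the sugar kinase list had *Gk5*, a glycerol kinase (0.38), of 12. None of 30 peroxisome genes and none of 10 lipocalin and lipoprotein genes reached that limit, and 1 of 15 phosphoethanolamine genes was lower. All these adjusted p-values were 0.984 by edgeR's quasi-likelihood test, and no gene of the lists was called.

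The genes whose levels over all 40 libraries were most like each of the 8 were named by Pearson's r of log2(CPM + 0.5) among 11762 genes. The libraries share preparation, depth and the IP against input contrast, so r is a description. *Heph* and *Fam213a* were most like each other (r = 0.993), and *Aldh6a1*, an enzyme of valine breakdown, was close to both (0.991). *Pxmp2* was most like *Nkain4* (0.991), *Heph* (0.987) and *Gstk1* (0.986), and *Cryz* was most like *Ivd*, of leucine breakdown (0.972), *Retsat* (0.971) and *Cyb5r3* (0.970). *Etnppl* was most like *Rhobtb3* (0.951), *Prelp* (0.948) and *Fam107a* (0.945), and *Acss3* was most like *Neo1* (0.958), *Trmt2b* (0.956) and *Cyp2j6* (0.952). *Apod* stood apart with *Trf*, transferrin (0.977), *Cp*, ceruloplasmin (0.951), and *Adamtsl4* (0.949). *Fggy* had the weakest likeness, to *Chd1l* (0.841), *Etfa* (0.835) and *Hhipl1* (0.833).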

How the data were processed

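Striatal RNA-seq of 40 mouse libraries was analysed. The authors deposited 1 table of raw read counts per gene and library, and the submitters' processing notes name STAR, HTSeq and mm10 with no versions. The labels and the study's methods name different library kits, and whether counting used strand is not given in the sources used here. Reads of overlapping or near-identical genes may therefore be misassigned.

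Counts were analysed in R 4.3.3 with edgeR 4.0.16 (filterByExpr, TMM, quasi-likelihood test, Benjamini-Hochberg adjustment over all genes tested) within the groups compared. Calls needed an adjusted p under 0.05, and for IP against input also a log2 fold change beyond 1 or -1. Intervals are the log2 fold change with a 95% t interval from its SE. CPM used library totals, and FPKM used merged exon lengths of RefSeq GRCm38.p6, where 23902 of 24060 rows were placed, 1303 of them by synonym. Plots used Python 3.11.15, pandas 2.3.3, numpy 2.4.6 and matplotlib 3.10.9.

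Alternatives were limma 3.58.1 (voom), DESeq2 1.42.0, other scalings and filters, *Xist* as a covariate, all WT and KO groups in 1 fit, a replicate block and leaving out each library. Fits without the libraries that stood apart were added after seeing the data. Same-numbered input and IP libraries deviated together (correlations of 0.258 to 0.791 over 4 sets of 4 pairs). The labels give them the same animal number in Control and SAPAP3 cohort mice. Syn libraries share only the number in their titles, and their labelled animal numbers differ. The replicate block paired them because every pair's correlation was 0.483 or more. The main fits had no block and treated the input and IP libraries of 1 animal as independent. No libraries were duplicates by a chi-square test of their counts. The tests were checked on simulated counts.

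The members and gene lists were chosen with earlier results of these data known. The genes named were the 8, *Dlgap3*, up to 4 of each list past the test, the 3 most alike genes over the libraries with a mean of at least 5 CPM, and called neighbours within 1 Mb. List genes named in bulk passed only an unadjusted limit and were named after their values were seen.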

Additional observations from a re-analysis of the deposited data

Results flagged for a closer look

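Of 80 groups of 4 libraries examined for a library far from the other 3, 4 had one, and chance alone gives about 1 in 20. *Fggy* was at 13.78 CPM in the input of WT replicate 2 of the SAPAP3 cohort, against 10.33 to 10.76 CPM in the others. *Cryz* was at 24.86 CPM in Control IP replicate 4, below the others at 27.48 to 27.98 CPM. *Fam213a* was at 133.1 CPM in KO bulk replicate 3, against 127.8 to 128.7 CPM, and at 82.69 CPM in Control input replicate 1, against 79.16 to 79.49 CPM.

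The enrichment in IP over input differed between Control and Syn mice by edgeR's test of the difference. On the log2 scale the difference was 3.214 for *Etnppl*, 3.084 for *Acss3*, 3.227 for *Heph*, 1.519 for *Apod* (adjusted p = 0.021), 3.017 for *Pxmp2* and 2.53 for *Fam213a*.

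In 3 cases every KO library of the SAPAP3 cohort lay below the WT mean, whereas every KO library of bulk lay above it, and the difference was not tested. In inputs the log2 fold change was -0.2297 for *Apod* and -0.1124 for *Pxmp2*, and in IP it was -0.07265 for *Fggy*. *Apod* was also below 0 in IP (-0.10), with its KO libraries on both sides of the WT mean.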

How the results depend on the processing

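Of 1316 alternative values of the 8 genes, 1212 kept their direction and side of the limit, 8 lost a call, 31 gained one and 65 changed sign, none of these a called value. The causes were not tested. In bulk, whose libraries were used to select the members, edgeR called 0 genes and DESeq2 called 17 with all 8 members. The fit of all WT and KO groups called 2. DESeq2 without WT replicates 1 and 3 called 2, with 1 member. Leaving out single libraries gave 0 to 22 genes and 0 to 4 members, the highest with DESeq2. In inputs the count of 1 gene became 8 with DESeq2, 5 in the fit of all groups, 0 without the *Xist* mice and 0 to 1 without single libraries. In IP the count of 4 became 8 with DESeq2, 1 with *Xist* as a covariate, 0 without those mice and 0 to 3 without single libraries.

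With a filter of mean 5 CPM and with the adjusted p alone, the IP against input counts were 2237 and 12448 in Control (4157), 869 and 11557 in Syn (2635), 1817 and 10496 in SAPAP3 cohort WT (3590), 1908 and 11211 in KO (3713), and 2671 and 11469 for Control minus Syn (4489). Members called in Syn were 1 and 6 instead of 2, and 0 to 2 without single libraries. The replicate block, which pairs libraries of 1 animal (in Syn, libraries with the same title number and different animal numbers), called 4173, 2645, 3627, 3727 and 4575 genes in the same order and 0 for genotype by fraction, and changed no member's call.

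Signs near 0 changed in inputs with library totals (*Heph* -0.0036, *Fggy* -0.0242, *Cryz* -0.0147), the 5 CPM filter (*Fggy* -0.00297), the *Xist* covariate (*Fggy* -0.0199) and without the *Xist* mice (*Pxmp2* 0.00678, *Fggy* -0.0599). In IP *Pxmp2* became -0.0168 with voom, -0.00426 with RLE, -0.0181 with library totals, -0.00152 without a filter, -0.00428 with DESeq2 and -0.00197 in the fit of all groups, and *Apod* 0.0545 without the *Xist* mice. In Syn *Fggy* became -0.12 with library totals and -0.0182 with the filter. The interaction of *Heph* became 0.0114 with RLE, 0.005 with library totals and 0.00404 with the filter. Without single libraries, input values ran from -0.012 to 0.0743 for *Heph*, -0.0779 to 0.112 for *Fggy*, -0.0141 to 0.056 for *Cryz* and -0.0404 to 0.292 for *Acss3*. IP values ran from -0.101 to 0.125 for *Pxmp2*, -0.102 to 0.128 for *Heph*, -0.025 to 0.149 for *Fam213a*, -0.0169 to 0.0898 for *Cryz* and -0.305 to 0.022 for *Apod*. Interactions ran from -0.123 to 0.106 for *Heph*, -0.154 to 0.238 for *Etnppl*, -0.165 to 0.0132 for *Fggy*, -0.12 to 0.0552 for *Fam213a*, -0.0701 to 0.306 for *Apod*, -0.00371 to 0.416 for *Acss3* and -0.0392 to 0.0858 for *Cryz*.

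Depth limits *Acss3* most, with 28 to 51 reads per input library of SAPAP3 cohort WT mice, 31 to 51 of KO mice and 18 to 27 of Control mice.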

Other observations

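Glucocorticoid target genes were listed as a further group of 16. In SAPAP3 cohort KO mice 7 of the 16 were higher in inputs and 7 in IP at an unadjusted p under 0.05 (2.82% and 1.64% of all genes), with medians of 0.24 and 0.32 on the log2 scale, and none was called (edgeR adjusted p = 0.735 and 0.999 for those named). *Plin4*, a lipid droplet protein, was at 1.51 in inputs and 1.57 in IP, and *Zbtb16*, a transcription factor, at 0.74 and 0.99. *Hif3a* was at 0.78 and 0.93, and *Sgk1*, a kinase, at 0.62 and 0.90. In bulk 1 of the 16, *Hif3a* (0.44), passed the unadjusted limit, and the median was 0.08. The inputs and IP came from the same mice, so their counts are not independent. The summed level of the 16 overlapped between genotypes, at 537 to 629.7 CPM in WT inputs and 563.5 to 835.1 CPM in KO inputs. In IP it was 839.7 to 1199 CPM in WT and 975.6 to 1573 CPM in KO. The genes given by name were named after their values were seen.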
